A study of Homo sapiens with 4 samples.

Results

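The keratin genes were followed on 4 one-colour Affymetrix arrays of the HCT116 line, which was established from a human colorectal carcinoma. They were taken as every probe set annotated to a single symbol made of KRT and a number, with an optional letter A to C, which leaves out keratin-associated proteins and pseudogenes. The rule gave 44 of the 19775 genes measured, on 56 probe sets, with 24 type I and 20 type II keratins. It does not cover the whole family. RefSeq lists 27 protein-coding keratins on chromosome 12 and 28 on chromosome 17, of which 21 and 23 were measured. KRT6A and KRT17 are among those without such a probe set. There was 1 array each of cells carrying shRNA #1 targeting KSR1, cells carrying shRNA #2 targeting KSR1, cells carrying a non-targeting shRNA vector (shCTRL), and untransfected cells. Per the labels, the vectors were introduced with Lipofectamine and clones were selected with puromycin, steps the untransfected array does not share. The sources used here do not give whether an array came from a single clone or a pool. KSR1 is a scaffold protein that brings the RAF, MEK and ERK kinases together, and the arrays set cells carrying its hairpins beside cells without them.

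Keratins are the intermediate filament proteins of epithelial cells. An acidic type I keratin pairs with a basic type II keratin, and the choice of pair marks the kind of epithelium. Simple epithelia such as the gut lining use KRT8 with KRT18, KRT19 and KRT20, stratified epithelia use pairs such as KRT5 with KRT14 in the basal layer and KRT4 with KRT13 in moist mucosa, and a further set builds hair and its root sheath.

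Values are deposited intensities, 1 per probe set and array, and a gene took its brightest probe set. Differences are of log2(intensity + 16), which understates differences of dim probe sets. A filter value of 6.08 on that scale, the median over all probe sets and equal to an intensity of 51.7, was used to set dim signals aside. It is not a measured detection limit. Genes whose mean over the 4 arrays reached it were analysed further. With 1 array per condition no difference between single arrays has a replicate check, and a size of 1 log2 unit (2-fold) is used to describe them. Intensities of different probe sets are on scales of their own and are not compared with each other.

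Of the 44 keratins, 18 reached the filter value on average, 3 reached it on at least 1 array without doing so on average, and 23 stayed under it on every array. The simple-epithelium keratins KRT8, KRT18 and KRT19 were above it on all 4 arrays, and KRT13 was under it in the hairpin #1 array. The epithelial adhesion molecule EPCAM had intensities of 8119, 7985, 7917 and 7855 in the hairpin #1, hairpin #2, shCTRL and untransfected arrays. On the same arrays and in the same order, the targeted gene KSR1 had intensities of 141, 171, 211 and 209. The array medians lay between 50.7 and 52.0. The 3' over 5' ratios of control transcripts reflect how intact the RNA was. In the hairpin #1, hairpin #2, shCTRL and untransfected arrays they were 2.01, 2.22, 2.09 and 2.68 for actin. Those of GAPDH were 1.14, 1.19, 1.17 and 1.16 in the same order. The hairpin #2 array stood apart from the other 3 for more genes than any other array, with 80 of 19775 genes (0.405%) at least 1 log2 unit above and 37 (0.187%) at least 1 below all others, against 2 to 14 above and 2 to 6 below for the other arrays.

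No keratin separated both KSR1 hairpin arrays from both other arrays by 1 log2 unit. Among all genes measured 0.0152% did so upward and 0.0202% downward. By any size, 5 keratins lay above both other arrays with both hairpins (KRT16, KRT222, KRT24, KRT73 and KRT83), against 17.3% of all genes, and 6 lay below (KRT15, KRT33B, KRT5, KRT74, KRT78 and KRT79), against 22.6%. As shares of the 44 these are 11.4% and 13.6%. In the limma comparison of both hairpin arrays with both others, which called 0 of 12468 genes at an adjusted p under 0.05 (0% in each direction) and had 882 (7.07%) at an unadjusted p under 0.05, 0 of 18 keratins passed either level. Its p-values measure the spread between the 2 hairpins and between shCTRL and untransfected cells, not between cultures of 1 kind.

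**Figure D1:**
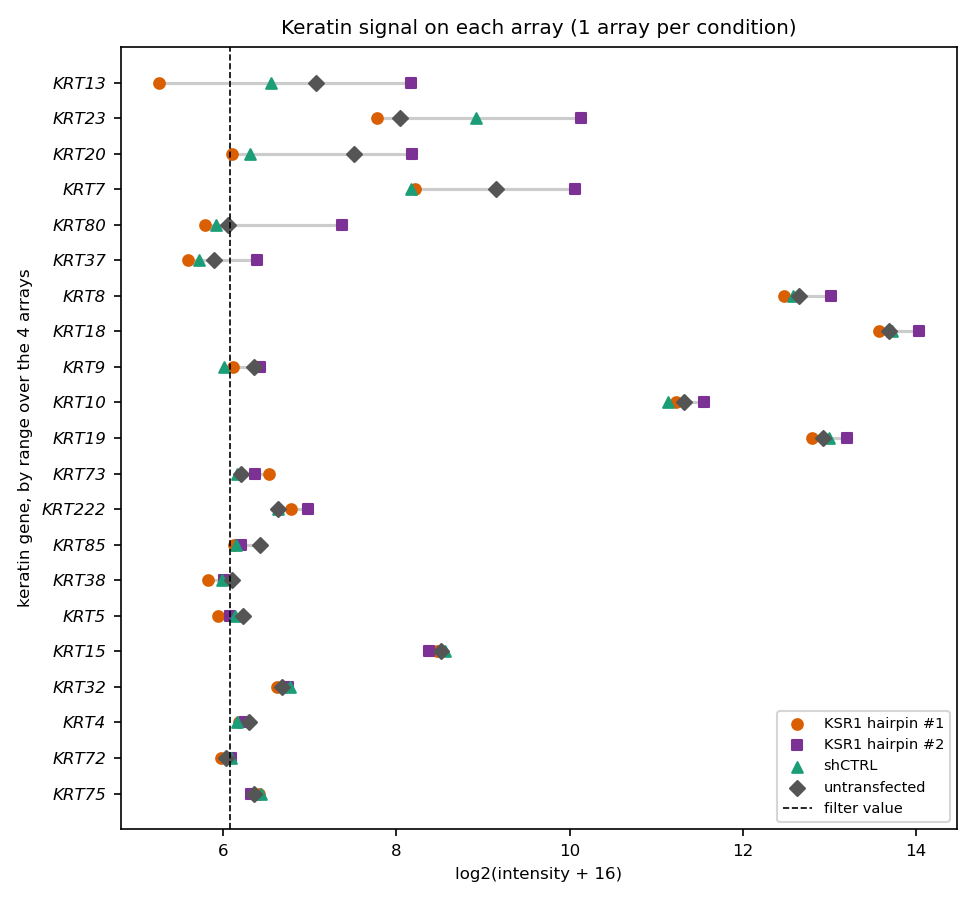
Signal of the 21 keratins that reached the filter value (dashed line) on average or on at least 1 array, on the log2(intensity + 16) scale, with 1 point per array and a grey bar from the lowest to the highest. KRT13, KRT23, KRT20, KRT7 and KRT80 span more than 1 log2 unit, with the hairpin #2 array at the high end of each.

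The signals of 5 keratins, KRT13, KRT23, KRT20, KRT7 and KRT80, ranged over at least 1 log2 unit between arrays, and the hairpin #2 array was the highest for each of them. That is 11.4% of the 44 keratins, against 2.67% of all genes measured, a grouping chosen after the values were seen. KRT23 is a type I keratin reported as induced by histone deacetylase inhibitors in pancreatic cancer cells. Its intensity was 203 with hairpin #1, 1109 with hairpin #2, 468 in shCTRL and 247 in untransfected cells. The hairpin arrays lay on opposite sides of shCTRL, at -1.14 with hairpin #1 and 1.22 with hairpin #2, and hairpin #2 was 2.10 above untransfected cells. The shCTRL array was itself 0.88 above untransfected cells. For the mean of the hairpin arrays minus that of the others, limma gave 0.48 (SE 0.84, adjusted p = 0.89).

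KRT13 is the type I partner of KRT4 in the lining of the mouth and oesophagus. It had intensities of 22.2 with hairpin #1, 273 with hairpin #2, 77.9 in shCTRL and 119 in untransfected cells. Hairpin #2 was 1.62 above shCTRL and 1.10 above untransfected cells. The hairpin #1 array alone was below the filter value. Its differences, -1.30 from shCTRL, -1.82 from untransfected cells and -2.92 from hairpin #2, are therefore of uncertain size and give KRT13 no rank among the keratins. The mean over both hairpins was close to that of the other arrays (-0.10, SE 0.98, limma adjusted p = 0.98). KRT4 differed little, with 56.6, 60.1, 55.6 and 62.5 in the hairpin #1, hairpin #2, shCTRL and untransfected arrays.

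KRT20 is a type I keratin of the gut, made by differentiated enterocytes and goblet cells and used by pathologists to recognise colorectal tumours. Its intensity was 52.5 with hairpin #1, 275 with hairpin #2, 63.7 in shCTRL and 166 in untransfected cells. The arrays fell into a lower pair, hairpin #1 and shCTRL, and a higher pair, hairpin #2 and untransfected cells. Hairpin #1 was 0.22 below shCTRL and hairpin #2 1.87 above it, while against untransfected cells hairpin #1 stood at -1.41, hairpin #2 at 0.67 and shCTRL at -1.20. The limma difference of hairpin from other arrays was 0.23 (SE 0.80, adjusted p = 0.95).

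The start region of KRT20 is shown because it is the most variable keratin with an entry in the RefSeq promoter table used here, which held 33 windows for 29 of the 44 keratins. KRT10, a keratin of the same cluster whose signal varied little, is set beside it. Each window runs from 250 bases before to 50 bases after the annotated start, on GRCh38.p14, minus strand, chr17:40885193-40885492 for KRT20 and chr17:40822565-40822864 for KRT10. Capitals mark TTTAT and its reverse complement ATAAA, the core that the intestinal homeobox factors CDX1 and CDX2 bind and which also lies within the TATA box sequence TATAAA.
KRT20: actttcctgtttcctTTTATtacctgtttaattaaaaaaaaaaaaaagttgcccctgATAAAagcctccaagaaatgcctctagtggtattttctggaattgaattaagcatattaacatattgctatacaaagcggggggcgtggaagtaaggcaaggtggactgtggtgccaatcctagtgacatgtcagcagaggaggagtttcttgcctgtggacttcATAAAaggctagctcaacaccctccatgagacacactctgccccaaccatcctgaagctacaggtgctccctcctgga
KRT10: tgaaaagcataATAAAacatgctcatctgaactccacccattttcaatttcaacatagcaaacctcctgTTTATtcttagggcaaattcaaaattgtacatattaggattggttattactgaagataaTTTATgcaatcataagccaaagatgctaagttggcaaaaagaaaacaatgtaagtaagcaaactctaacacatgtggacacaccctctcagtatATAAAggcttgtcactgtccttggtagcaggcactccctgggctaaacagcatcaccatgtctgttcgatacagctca

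Both windows held a match that began 28 bases before the start, in KRT10 as part of a TATAAA. KRT20 had 3 matches and KRT10 had 4. On either strand, 34.9% of all 35116 windows held the core, and 29 of the 33 keratin windows (87.9%) did. A match that began 20 to 35 bases before the start was present in 22 keratin windows (66.7%), against 5.98% of all windows. CDX1 itself had intensities of 148, 147, 144 and 159 in the hairpin #1, hairpin #2, shCTRL and untransfected arrays, and CDX2 had 79.9, 131, 83.4 and 89.3, with hairpin #2 the highest. Both genes were chosen here after their values were seen.

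KRT7, a type II keratin of glandular and ductal epithelia that is usually scarce in the colon, had intensities of 282 with hairpin #1, 1056 with hairpin #2, 272 in shCTRL and 554 in untransfected cells. As with KRT20, hairpin #1 and shCTRL made the lower pair. Relative to shCTRL, hairpin #1 stood at 0.05 and hairpin #2 at 1.90, and relative to untransfected cells at -0.94 and 0.91. The limma difference was 0.48 (SE 0.70, adjusted p = 0.86). The contrast rested on the brightest of the 4 KRT7 probe sets. On the next brightest the intensities were 89.1, 93.2, 90.2 and 97.8 in the hairpin #1, hairpin #2, shCTRL and untransfected arrays, and the other 2 probe sets lay between 7.54 and 16.3. The sources used here do not give which transcripts each probe set detects.

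KRT80, a type II keratin of epithelia that are differentiating, had 39.3 with hairpin #1, 149.6 with hairpin #2, 44.4 in shCTRL and 50.5 in untransfected cells. It reached the filter value on the hairpin #2 array only, so it entered the analysed genes through the array in which it was high. Hairpin #2 was 1.46 above shCTRL and 1.32 above untransfected cells, against -0.13 and -0.27 with hairpin #1, sizes that are uncertain because the other arrays were dim. The limma difference was 0.59 (SE 0.53, adjusted p = 0.76). The hair keratin KRT37 had the next widest range, 0.79, with 32.2, 67.6, 37.0 and 43.5 in the hairpin #1, hairpin #2, shCTRL and untransfected arrays, again above the filter value with hairpin #2 only.

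**Figure D2:**
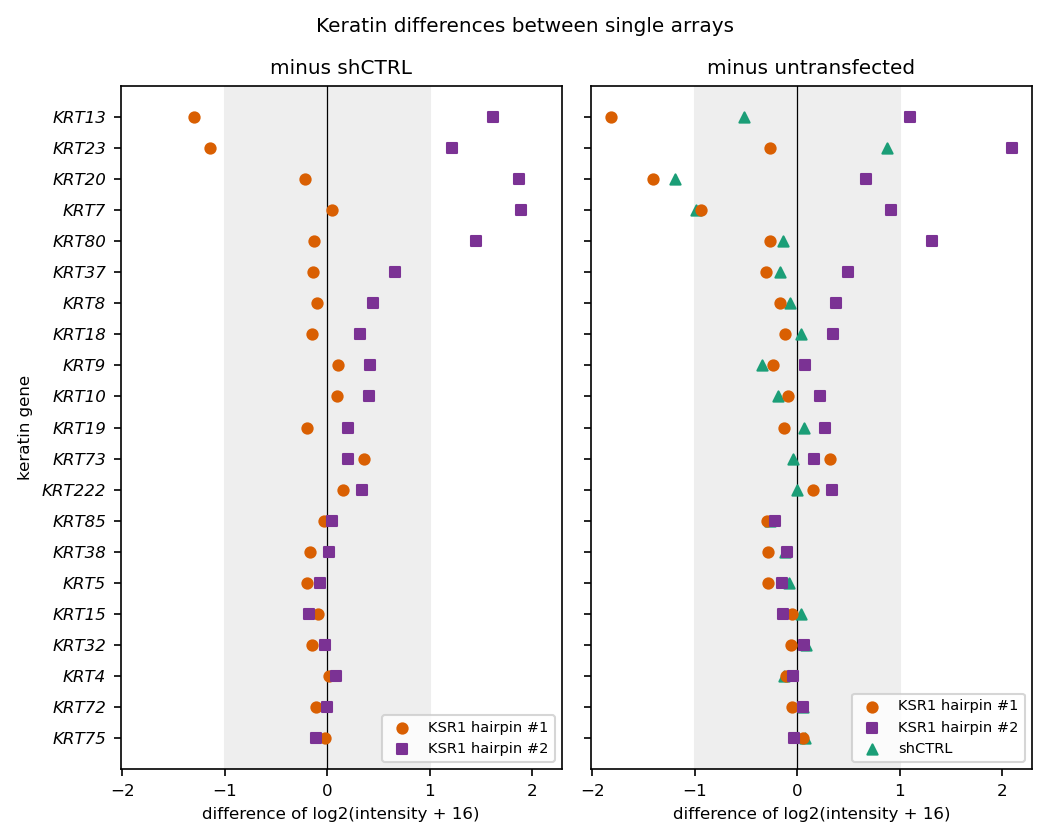
Difference of log2(intensity + 16) for the same 21 keratins, each array minus shCTRL on the left and minus untransfected on the right, with 1 point per difference and a grey band of 1 log2 unit on either side of 0. Hairpin #2 is more than 1 log2 unit above shCTRL for KRT13, KRT23, KRT20, KRT7 and KRT80, and hairpin #1 is more than 1 below it for KRT13 and KRT23.

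Counted by single comparisons over all 44 keratins, 5 were at least 1 log2 unit higher with hairpin #2 than in shCTRL and 0 were lower. Among all genes measured 0.733% were higher by that size and 0.612% lower. With hairpin #1, 0 were higher than in shCTRL and 2 lower, KRT13 and KRT23, against 0.0759% and 0.283% of all genes. These comparisons share the shCTRL array. Against untransfected cells, 3 keratins were higher with hairpin #2 (KRT13, KRT23 and KRT80) and 0 lower, with 0.91% and 0.652% of all genes, and 0 were higher with hairpin #1 and 2 lower (KRT13 and KRT20), with 0.172% and 0.344%. These share the untransfected array. In shCTRL, 0 keratins were higher than in untransfected cells and 1, KRT20, was lower, against 0.319% and 0.253% of all genes. Between the hairpin arrays themselves, 0 were higher with hairpin #1 and 5 were lower with it than with hairpin #2, the same 5 keratins, against 0.42% and 0.804% of all genes.

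Only 3 of the 5 stood at least 1 log2 unit above all other arrays with hairpin #2, namely KRT13, KRT23 and KRT80, which is 6.82% of the keratins against 0.405% of all genes, and 0 stood that far below, against 0.187%. In the other direction KRT13 was the only keratin at least 1 log2 unit below all others in the hairpin #1 array, where 0.0303% of all genes were. The hairpins lay at least 1 log2 unit from shCTRL in opposite directions for KRT13 and KRT23, as for 0.0202% of all genes, and from untransfected cells for KRT13, as for 0.0405%. With a pseudocount of 64 neither gene did so against either array. The part that the wider departure of the hairpin #2 array has in the keratin contrast was not tested.

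The bright simple-epithelium keratins leaned the same way by less. KRT8, the type II keratin of simple epithelia, had intensities of 5683 with hairpin #1, 8309 with hairpin #2, 6080.0 in shCTRL and 6389 in untransfected cells. Its partner KRT18 had 12123, 16755, 13455 and 13161 in the same order. KRT19, a type I keratin without the usual tail domain, had 7103, 9380.2, 8140 and 7795 on its brightest probe set. Its other probe set, under the filter value on every array, had 39.2, 38.0, 32.1 and 37.5 and is not used in what follows. Each of the 3 was highest with hairpin #2 and lowest with hairpin #1, while shCTRL and untransfected cells lay between, with shCTRL minus untransfected at -0.07 for KRT8, 0.03 for KRT18 and 0.06 for KRT19. Relative to shCTRL, hairpin #2 was higher by 0.45 for KRT8, 0.32 for KRT18 and 0.20 for KRT19, and hairpin #1 stood at -0.10, -0.15 and -0.20. Differences between hairpin #2 and shCTRL at least this large were found for 11.5%, 21.4% and 38.2% of the genes analysed. Over both hairpins against both others the differences were 0.14 (SE 0.20), 0.10 (SE 0.18) and 0.04 (SE 0.16), with limma adjusted p-values of 0.86, 0.89 and 0.96. In such bulk RNA, fewer cells with a transcript and less of it per cell cannot be told apart.

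KRT10, the type I partner of KRT1 in the upper epidermis, gave the same order on each of its 3 probe sets for the highest and the lowest array. On the brightest the intensities were 2380.1 with hairpin #1, 2975 with hairpin #2, 2231 in shCTRL and 2542 in untransfected cells. The other probe sets had 2031, 2442, 1891 and 1975, and 1330, 1642, 1319 and 1421. Hairpin #2 was thus the highest and shCTRL the lowest, at a distance of 0.41 on the brightest probe set. KRT1 itself stayed under the filter value on every array, with intensities of at most 41.6.

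**Figure D3:**
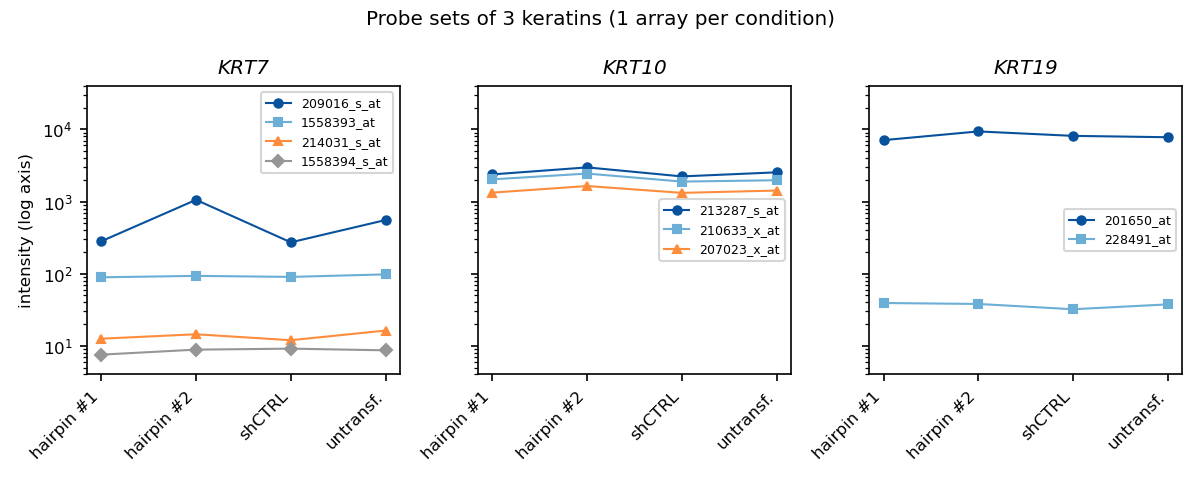
Intensity on a log axis of every probe set of KRT7, KRT10 and KRT19, with 1 point per array joined by lines for each probe set. The brightest KRT7 probe set spans 272 to 1056, its next brightest only 89.1 to 97.8, and the 3 KRT10 probe sets run in parallel. The dim KRT19 probe set spans 32.1 to 39.2 and is highest with hairpin #1. Heights of different probe sets are not comparable.

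The remaining keratins above the filter value on average varied by under 0.5 log2 units. KRT15, a type I keratin of basal cells and hair follicle stem cells, had 338, 317, 361 and 351 in the hairpin #1, hairpin #2, shCTRL and untransfected arrays. Both hairpin arrays were below both others, by a limma difference of -0.11 (SE 0.09, adjusted p = 0.74). KRT5, the basal type II keratin, was close to the filter value with 45.6, 51.4, 54.6 and 58.9, again both hairpins below both others (-0.17, SE 0.10, limma adjusted p = 0.69). It did not show the hairpin #2 excess.

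KRT222 had 94.6, 110.1, 83.6 and 83.7 in the hairpin #1, hairpin #2, shCTRL and untransfected arrays, so that both hairpin arrays were above both others (0.24, SE 0.11, limma adjusted p = 0.67). KRT73, a type II keratin of the inner root sheath of hair, did likewise with 76.2, 66.8, 55.8 and 57.9 (0.26, SE 0.10, limma adjusted p = 0.67). It was the only analysed keratin with hairpin #1 the highest. These 2 had the largest hairpin differences relative to their SE among the 18, and neither passed the test. Each has another, dimmer probe set on which the hairpin arrays were not both above both others. In the same order of arrays, it had 43.4, 56.1, 45.2 and 39.1 for KRT222 and 17.8, 19.1, 17.8 and 19.1 for KRT73.

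The others gave no common order. KRT9, a keratin of palm and sole skin, had 53.3, 70.2, 48.4 and 65.9 in the hairpin #1, hairpin #2, shCTRL and untransfected arrays. The hair and follicle keratins lay within narrow ranges. KRT32 had 82.2, 91.2, 93.0 and 86.6, KRT75 had 69.0, 64.3, 70.5 and 66.1, and KRT85 had 53.6, 57.7, 55.1 and 69.6, in that order of arrays. KRT38 and KRT72 touched the filter value on some arrays, KRT38 with 40.6, 48.5, 47.6 and 53.0 and KRT72 with 47.1, 52.0, 52.0 and 49.5. The 23 keratins under it on every array, 12 of type I and 11 of type II, had intensities between 8.24 and 48.1, and the widest range among them was 0.42 log2 units, for the wound and hyperproliferation keratin KRT16. The basal KRT14 was among them with 20.9, 32.5, 22.8 and 25.4 in the same order of arrays. KRT14 and KRT1 were singled out after their values were seen.

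Over all 44 keratins the hairpin #2 array was the highest for 22 keratins (50%), against 26.5% of all genes measured, and the hairpin #1 array was the lowest for 23 (52.3%), against 26%. Of the 22 and the 23 keratins, 11 and 10 reached the filter value on average, KRT80 only through hairpin #2, and the rest were dim. As shares of the 18 analysed keratins these are 61.1% and 55.6%, against 30.1% and 21.6% of all genes analysed. The median difference of hairpin #1 minus hairpin #2 was -0.12 over the 44 keratins, with 35 lower and 9 higher. Over all 19775 genes measured it was -0.01, with 10197 lower and 9485 higher. The median of hairpin #2 minus shCTRL was 0.09 over the keratins and -0.01 over all genes measured, and that of hairpin #1 minus shCTRL was -0.08 and -0.02. For shCTRL minus untransfected it was -0.04 over the keratins and 0.00 over all genes measured. Over the 18 keratins that reached the filter value on average, a set that holds the 5 variable ones, the median was -0.32 for hairpin #1 minus hairpin #2 and 0.33 for hairpin #2 minus shCTRL, against -0.01 and 0.01 over all genes analysed.

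In RefSeq gene order, the type I keratins lie in a cluster on chromosome 17 and the type II keratins in one on chromosome 12, with KRT18 at its end beside KRT8. The 5 variable keratins did not form a single block. KRT20 and KRT23 are neighbours on chromosome 17 and KRT80 and KRT7 on chromosome 12, with 0 other protein-coding genes between the members of each pair. Their differences of hairpin #1 minus hairpin #2 were -2.09, -2.36, -1.58 and -1.85. That of KRT80 is of uncertain size, and KRT20 with hairpin #1 was close to the filter value. The other KRT7 probe sets gave -0.06, -0.09 and -0.08. KRT13 (-2.92, of uncertain size) lies elsewhere on chromosome 17, between KRT36 (-0.16) and KRT15 (0.09). On the other sides, KRT12 next to KRT20 differed by -0.07, and KRT86 next to KRT7 was not analysed here. KRT8 (-0.55) and KRT18 (-0.47), neighbours of opposite type, differed by nearly the same amount. Each rests on a single probe set with a name ending in _x_at. Where such probe sets were left out, neither gene was measured and 16 keratins were analysed instead of 18.

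**Figure D4:**
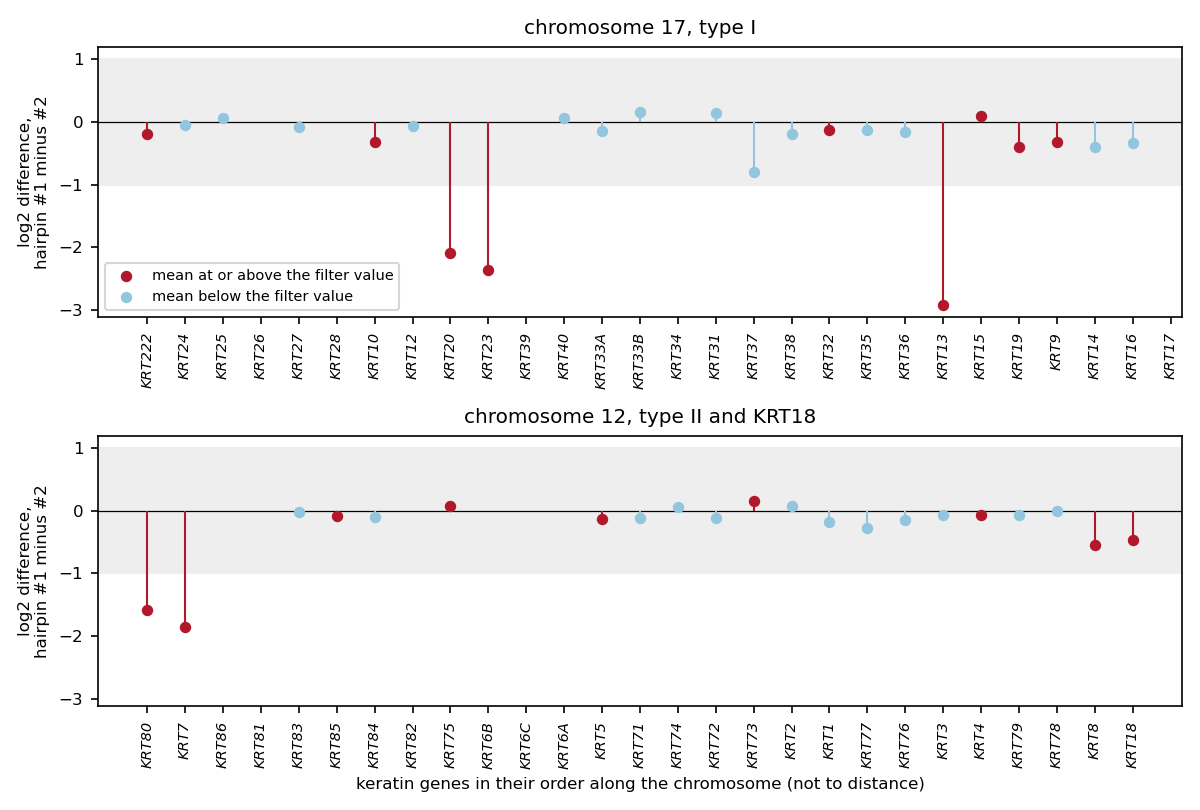
Difference of log2(intensity + 16), hairpin #1 minus hairpin #2, for the keratins in RefSeq order along chromosome 17 (top) and chromosome 12 (bottom), with a grey band of 1 log2 unit on either side of 0, dark points for keratins whose mean reached the filter value and light points for the rest. Genes with no point were not analysed here. KRT20 with KRT23 and KRT80 with KRT7 form neighbouring pairs below -1, and KRT13 lies apart from them at -2.92. The values of KRT13 and KRT80 are of uncertain size, and that of KRT7 was not seen on its other probe sets.

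Genes that work with keratins were read in the same way. Of 18 genes for keratin-binding linkers and desmosomal partners, 17 were analysed and 0 passed limma in either direction. Both hairpin arrays were above both others for 7 and below for 2, against 22.5% and 18.4% of the genes analysed, and the median difference was 0.07, against 0.02 over all genes analysed. The plakin PPL, which ties keratins to desmosomes and the cornified envelope, had intensities of 634 with hairpin #1, 959 with hairpin #2, 471 in shCTRL and 541 in untransfected cells, a difference of 0.61 (SE 0.22, limma adjusted p = 0.67). EPPK1, a plakin that binds simple-epithelium keratins, had 461, 608, 401 and 302 in the same order (0.58, SE 0.20, adjusted p = 0.67). FAM83H, which recruits casein kinase to keratin filaments, had 700.2, 1094, 643 and 556 (0.54, SE 0.24, adjusted p = 0.67). Both hairpin arrays were above both others for these 3, with hairpin #2 the highest in each. They were named for the size of that difference, so they cannot be set against the 5 variable keratins. DST, whose epithelial form anchors keratins at hemidesmosomes, had 1377, 771, 1389 and 1568 (-0.51, SE 0.29, adjusted p = 0.68), with hairpin #2 alone low.

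Of 15 other intermediate filament genes 11 were analysed, 0 passed limma, 1 was above both other arrays and 2 below, and the median was -0.04. Over all genes analysed, 22.5% were above and 18.4% below. Vimentin (VIM), the filament protein of mesenchymal cells, was dim, with 101.2 in hairpin #1, 59.0 in hairpin #2, 49.4 in shCTRL and 72.7 in untransfected cells (0.30, SE 0.27, limma adjusted p = 0.76). It was highest with hairpin #1 and under the filter value in shCTRL. The lens gene BFSP1 stood at -0.37 (SE 0.14, adjusted p = 0.67), PRPH, a filament of peripheral neurons, at -0.32 (SE 0.18, adjusted p = 0.68), and the nuclear lamin LMNA at 0.19 (SE 0.12, adjusted p = 0.70).

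Genes of the cornified envelope, the shell of dead surface cells in stratified epithelia, were mostly dim. Of 16 measured 4 were analysed and 0 passed limma. Of these 1 was above and 1 below both other arrays, against 22.5% and 18.4% of all genes analysed, and the median was 0.04. CSTA, the protease inhibitor cystatin A, had intensities of 269.9 with hairpin #1, 1273 with hairpin #2, 679 in shCTRL and 278 in untransfected cells (0.43, SE 0.83, limma adjusted p = 0.90). CSTA was highest with hairpin #2 and lowest with hairpin #1. The others analysed were SPRR1A (0.08), TGM1 (0.01) and CNFN (-0.04). Involucrin (IVL) and filaggrin (FLG) were at most 23.3 and 8.13 on any array, chosen after their values were seen.

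Of 16 epithelial transcription factors measured 13 were analysed and 0 passed limma. Of these 2 were above and 1 below both other arrays, against 22.5% and 18.4% of all genes analysed, and the median was 0.17. EHF, an epithelial ETS factor, was 2080 with hairpin #1, 3328 with hairpin #2, 855 in shCTRL and 470 in untransfected cells (2.03, SE 0.37, limma adjusted p = 0.67). EHF separated both hairpins from both other arrays, but it was named for the size of that difference. KLF5, a zinc finger factor of intestinal crypts, had 366, 1097, 254 and 467 in that order (0.85, SE 0.59, limma adjusted p = 0.71). It was highest with hairpin #2 and second in untransfected cells. OVOL1 had 376, 766, 385 and 393 (0.45, SE 0.34, limma adjusted p = 0.72), with hairpin #2 alone high. KLF4 had 1293, 2107, 1626 and 2958 (-0.41, SE 0.38, adjusted p = 0.77). GRHL3, a grainyhead factor of surface epithelium chosen after its values were seen, had 45.4, 207, 44.6 and 162, the same lower and upper pairs of arrays as KRT20.

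Markers of other cells were read alongside. For their counts above and below both other arrays, the shares over all genes analysed were 22.5% and 18.4%. All 11 simple-epithelium markers were analysed, 3 were above and 1 below both other arrays, and the median was 0.04. Their summed intensity was 38059, 48783, 41187 and 40372 in the hairpin #1, hairpin #2, shCTRL and untransfected arrays. Such a sum is led by the brightest probe sets, here those of KRT8, KRT18, KRT19 and EPCAM, and so restates the keratin values in part. CLDN3 (-0.38), CLDN4 (0.36), CDH1 (0.26) and ELF3 (-0.19) had the largest differences, and EPCAM differed by 0.03. Of 11 stratified-epithelium markers measured 6 were analysed, 0 above and 1 below, with a median of -0.06. Their summed intensities were 3118, 3903, 3024 and 3324, mostly from KRT10 and with KRT13 included. The desmosomal cadherin DSC3 had 96.2, 21.7, 84.5 and 73.4 in that order (-0.54, SE 0.53, limma adjusted p = 0.78), and SERPINB5 differed by 0.11. DSC3 was under the filter value with hairpin #2, so its difference is of uncertain size. Of 12 fibroblast markers 5 were analysed, 0 above and 2 below, with a median of -0.14 and summed intensities of 969, 982, 1069 and 1063, led by THY1 (-0.21), ACTA2 (-0.14), FBLN1 (-0.14) and COL1A1 (-0.11). Of 10 leukocyte markers measured 1 was analysed, HLA-DRA (-0.05), and the sums were 273, 317, 332 and 297. None of these 4 marker lists had a member past limma, and their part in the keratin contrast was not tested.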

How the data were processed

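Total RNA from HCT116 cells was labelled as biotinylated cRNA from 2.5 micrograms per array with the Affymetrix 1-cycle kit, per the labels. The deposited values are intensity values on a linear scale. The sources used here do not give the summary method, background correction or normalization. Array medians were close, so nothing was rescaled. Of 54675 probe sets, 41097 had 1 symbol, 1801 several and 11777 none in the platform annotation, and 41043 matched RefSeq (GRCh38.p14) by gene identifier. No depth applies to arrays, and their number limits precision.

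Intensities were converted to log2(intensity + 16). Genes took their brightest probe set, and 12468 of 19775 with a mean of at least 6.08 were fitted with limma 3.58.1 in R 4.3.3 (lmFit, eBayes, Benjamini-Hochberg), both hairpin arrays against both others, with 2 residual degrees of freedom. The script was tested on simulated data. Other comparisons are differences of single arrays.

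The members, the gene lists and the rule for named genes were chosen with earlier results of these data known. That rule took the keratins at or above the filter value on average or on any array, KRT8, KRT18, KRT19 and KRT13, and up to 4 genes of each of 8 lists by the size of the hairpin difference, with VIM and EPCAM. The 12 alternatives changed the filter, the probe set rule, the normalization, the pseudocount or the arrays used.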

Additional observations from a re-analysis of the deposited data

Results flagged for a closer look

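KRT13 and KRT23 stood at least 1 log2 unit from the same array in opposite directions with the 2 hairpins, which 4 of 19775 genes (0.0202%) did against shCTRL. Relative to shCTRL, hairpin #1 gave -1.30 for KRT13 and -1.14 for KRT23, while hairpin #2 gave 1.62 and 1.22. KRT13 also did so relative to untransfected cells, -1.82 for hairpin #1 and 1.10 for hairpin #2, as did 8 genes in all (0.0405%). KRT13 with hairpin #1, at an intensity of 22.2, was under the filter value. With a pseudocount of 64 no pair of differences reached 1 log2 unit on both sides. Against shCTRL they were -0.72 with hairpin #1 and 1.25 with hairpin #2 for KRT13 and -0.99 and 1.14 for KRT23, and against untransfected cells -1.09 and 0.88 for KRT13. With 1 array per hairpin the difference between the hairpins was not tested.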

How the results depend on the processing

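The count of genes past limma was 0 under all 12 alternatives, with 569 to 1534 genes at an unadjusted p under 0.05 and smallest adjusted p-values of 0.0996 to 0.914. No paired analysis was possible because there was 1 array per condition. No analysed keratin passed under any alternative, with adjusted p-values of 0.162 to 1 (where an array was left out, the lone array of its side is assumed to vary like the others). The count of keratins that separated both sides by 1 log2 unit, 0, was 0 to 3 when 1 array was left out. It was 3 without hairpin #1 (KRT13, KRT23 and KRT80) and 1 without hairpin #2 (KRT13). The number of keratins with a range of at least 1 log2 unit, 5, was 3 to 5 when 1 array was left out, the lowest without hairpin #2 (KRT13, KRT20 and KRT23), an alternative chosen after seeing the data. With the mean over probe sets it was 4, KRT7 no longer among them. With a filter at the 75th percentile, which keeps 7 keratins, the counts were 2 for the range, 2 for hairpin #1 against hairpin #2, 1 for hairpin #1 against shCTRL, 2 for hairpin #2 against shCTRL, 0 and 1 for hairpins #1 and #2 against untransfected cells, and 0 for shCTRL against untransfected cells. With a pseudocount of 64, which shrinks dim differences, they were 0 for hairpin #1 against shCTRL, 1 and 1 for hairpins #1 and #2 against untransfected cells, and 0 for shCTRL against untransfected cells, which was 2 with a pseudocount of 1 or quantile normalization.

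Of 201 recomputed differences of the 18 analysed keratins, 23 changed sign. With 1 array left out, the lowest and highest values of the keratins that changed sign were -0.00086 and 0.32 for KRT10, -1.56 and 1.36 for KRT13, -0.13 and 0.33 for KRT18, -0.16 and 0.24 for KRT19, -0.82 and 1.27 for KRT20, -0.71 and 1.66 for KRT23, -0.11 and 0.019 for KRT32, -0.078 and 0.054 for KRT4, -0.44 and 1.4 for KRT7, -0.07 and 0.013 for KRT75, -0.13 and 0.41 for KRT8, -0.2 and 1.39 for KRT80, -0.26 and 0.0099 for KRT85, and -0.083 and 0.26 for KRT9. KRT7, KRT8, KRT10, KRT18, KRT19, KRT20, KRT23 and KRT80 took the lower of these values without hairpin #2, while KRT13 was lowest without hairpin #2 and highest without hairpin #1. KRT13 was also at 0.081 with a pseudocount of 64, and KRT4 at 0.01 with median centring and 0.0042 with quantile normalization. The cause was not tested.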
